A study of Mus musculus with 10 samples.

Results

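Glycolysis, the pentose phosphate pathway, the control of pyruvate entry into mitochondria and the HIF pathway were followed through 34 genes in sorted spleen CD4+ T cells. The genes were chosen by symbol from what their products do: 18 of glycolysis, 6 of pyruvate control, 6 of the pentose phosphate pathway and 4 of the HIF pathway. Earlier results of these data were known when they were chosen. They are 34 of the 48321 gene symbols counted, and all 34 were among the 13796 genes with enough counts to test. RNA-seq counts were analysed for 10 libraries in 5 groups of 2. The mice were WT or *Satb1* F/F:*Thpok-cre* (KO), all of strain C57BL/6 and all with a GFP reporter of *Foxp3*. GFP+CD25+ and GFP-CD25- cells were sorted from each genotype, and GFP+CD25- cells from KO mice. GFP is read here as FoxP3. *Thpok-cre* is active from commitment to the CD4 lineage on, so all 3 KO populations carry the same deletion design. No treatment was given, and the study's methods describe young adult mice of both sexes. The labels number the libraries within each genotype, and the study speaks of biological replicates. *Xist* and *Ddx3y* counts set the WT libraries numbered 1 apart from those numbered 2, so these came from different animals. For the KO libraries the counts do not show this, and p-values measure the spread between libraries.

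Glycolysis splits glucose into pyruvate in the cytosol. Hexokinase makes the entry step, lactate dehydrogenase turns pyruvate into lactate, and the pyruvate dehydrogenase complex sends pyruvate into mitochondria unless its kinases switch it off. The pentose phosphate pathway branches off after hexokinase and yields NADPH and ribose phosphate. HIF-1α, the product of *Hif1a*, is hydroxylated and marked for destruction by prolyl hydroxylases such as *Egln1* and *Egln3* when oxygen is present, and in low oxygen it raises many glycolytic genes. In T cells this programme is best known from activated effector cells, and regulatory T cells (Tregs) are usually described as relying on it less.

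Totals were 6094952 to 12410064 counts per library, and 3 counts, the limit set by a count of 0, came to 0.248 to 0.496 CPM. Such limits cover counting error only. Levels are CPM, counts scaled to the library total with TMM factors, unless stated. *Foxp3* averaged 667 and 693 CPM in WT and KO FoxP3+CD25+ cells, while KO FoxP3+CD25- cells had 339 and FoxP3-CD25- cells had 18.3 (WT) and 29.2 (KO). *Satb1* had 598 and 534 CPM in KO and 379 and 478 in WT FoxP3+CD25+ cells. In FoxP3-CD25- cells it had 841 and 682 CPM in KO and 818 and 881 in WT, and KO FoxP3+CD25- cells had 1186 and 993. Gene counts cannot show which exons the reads came from. Both WT libraries numbered 1 held *Xist* (14487 and 16362 counts) and no *Ddx3y* count, while the other 8 held at most 4 *Xist* counts and 1465 to 2103 *Ddx3y* counts. Calls of the members are therefore also given without these 2 where they change. Calls of marker genes and of other pathway genes, and group means, were not redone without them. T cell markers summed to 2737 to 3589 CPM. Of the markers of other cells, B and plasma cell genes summed to 16.3 to 21.1 CPM in FoxP3+CD25+ libraries and 1.96 to 6.78 in the others. *Ms4a1* was at 0 in 8 and *Jchain* at 0 in 5 of 10 libraries. In both the WT and the KO pair, 1 of 2 B and plasma cell genes tested passed as higher in FoxP3+CD25+ cells. Against either FoxP3+CD25+ group, 1 of 2 passed as lower in KO FoxP3+CD25- cells. NK cell genes summed to 12.4 to 25.7 CPM in the 4 FoxP3-CD25- libraries and 2.41 to 7.47 in the other 6. Most of this was *Eomes*, which some T cells also express. It passed as lower in the FoxP3+CD25+ cells of the WT pair, and KO FoxP3+CD25- cells were lower than either FoxP3-CD25- group. Myeloid genes summed to 17.6 to 25.2 with *S100a9* at 0 in 10 libraries, and 1 of 3 tested passed as lower in FoxP3+CD25+ cells of the KO pair. CD8 genes summed to 9.38 to 16.6, and erythroid and platelet genes to 0.745 to 3.51. Their part in the results below was not tested. In bulk samples, fewer cells of a type and less RNA per cell cannot be told apart.

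The promoters of 4 members that differed between groups show the letters the HIF heterodimer is known to bind, ACGTG and GCGTG. They were searched on both strands of RefSeq windows (GRCm38.p6) running from 250 bases before to 50 after each start site. At least 1 of these motifs was in 39 of the 48 windows of the members (81.2%) and in 43.8% of all 32851 windows. By gene, it was in 31 of 33 members with a window (93.9%) and in 46.7% of 27025 genes. The member windows were richer in G and C, at a median of 61.0% against 52.7% for all windows, and the search was not matched for this. The 250 bases before the start site follow, 5′ to 3′ on the gene's strand, with both motifs on either strand in capitals.
*Hk2*, chr6:82774455-82774704, minus strand: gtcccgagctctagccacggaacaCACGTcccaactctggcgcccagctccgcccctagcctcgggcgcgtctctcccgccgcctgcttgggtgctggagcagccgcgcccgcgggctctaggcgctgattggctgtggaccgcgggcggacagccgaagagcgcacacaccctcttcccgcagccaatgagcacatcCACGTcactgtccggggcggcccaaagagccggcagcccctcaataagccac
*Hif1a*, chr12:73907617-73907866, plus strand: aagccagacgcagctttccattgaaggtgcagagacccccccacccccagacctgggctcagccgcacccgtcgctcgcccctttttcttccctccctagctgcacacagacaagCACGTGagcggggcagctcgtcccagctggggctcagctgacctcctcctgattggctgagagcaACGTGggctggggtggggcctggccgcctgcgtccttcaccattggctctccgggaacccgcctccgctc
*Egln3*, chr12:54203875-54204124, minus strand: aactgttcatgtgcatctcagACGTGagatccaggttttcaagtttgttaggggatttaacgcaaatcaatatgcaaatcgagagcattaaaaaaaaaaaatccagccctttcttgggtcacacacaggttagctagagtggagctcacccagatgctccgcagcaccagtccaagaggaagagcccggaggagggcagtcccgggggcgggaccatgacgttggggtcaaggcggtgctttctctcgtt
*Pdk1*, chr2:71872974-71873223, plus strand: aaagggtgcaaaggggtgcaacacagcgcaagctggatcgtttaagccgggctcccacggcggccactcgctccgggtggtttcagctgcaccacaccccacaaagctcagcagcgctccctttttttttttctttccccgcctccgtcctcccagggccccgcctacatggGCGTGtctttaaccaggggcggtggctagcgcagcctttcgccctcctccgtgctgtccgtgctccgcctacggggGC
The capitals of *Hif1a* include CACGTG, a palindrome that holds ACGTG on both strands and that other factors also bind. CACGTG was in 12.5% of the member windows and in 7.15% of all windows. The last 2 capitals of *Pdk1* begin a motif that runs past the start site, and another *Pdk1* window held neither motif. A match is a description of letters, not a bound site.

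Per kilobase of exon, the members differed widely in level. *Ldha*, lactate dehydrogenase A, stood highest with a median of 109 CPM per kb over the 10 libraries, ahead of *Pkm* (pyruvate kinase, 78.9), *Aldoa* (aldolase A, 67.5) and *Gpi1* (glucose-6-phosphate isomerase, 57.1). *Hif1a* was 8th with 39.5 CPM per kb, level with *Eno1* at 40.0, whose range over libraries (28.2 to 51.4) lay inside that of *Hif1a* (27.3 to 80.2). *Bnip3*, a mitophagy gene induced by HIF, had 0.984, *Aldoc* 0.786 and *Hk2*, hexokinase 2, was last at 0.465. The ranges of these last 3 overlapped, so their order is not firm. Levels of *Pgk1*, *Bnip3*, *Pgam1*, *Eno1*, *Pkm*, *Gapdh* and *Ldhb* are uncertain: at least 20% of the 50-base stretches of their transcripts, the length of a read, also occur in transcripts of other symbols. This share was 53.9% for *Pgk1* and 0 for *Hk2*, *Eno3*, *Pdk1*, *Tkt* and *Egln3*.

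**Figure D1:**
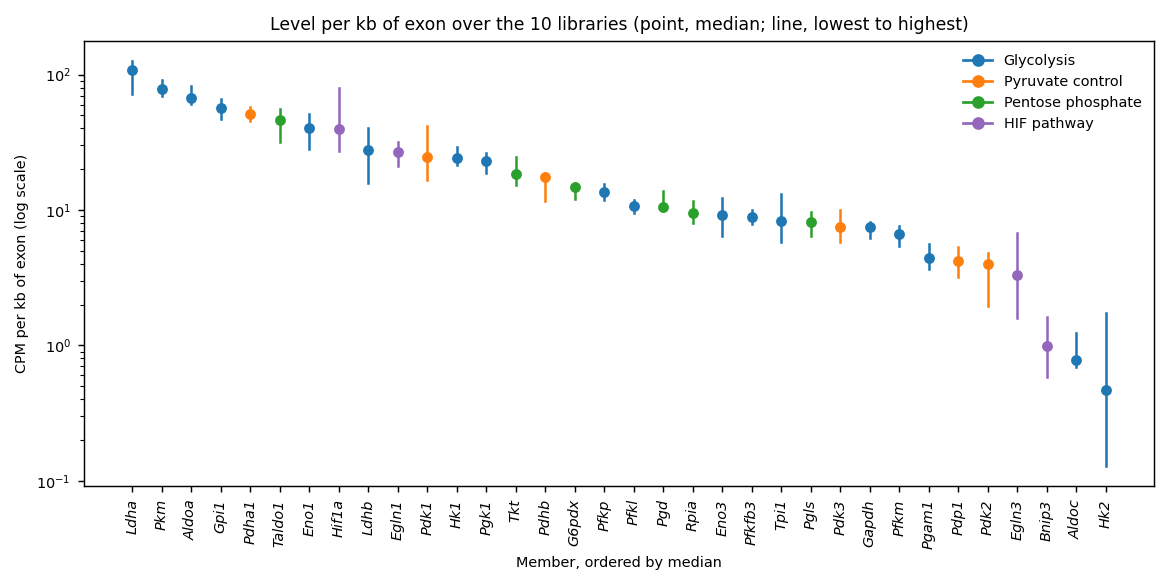
Level of the 34 members in CPM per kilobase of exon (log axis), ordered by median. Points are medians and lines run from the lowest to the highest of the 10 libraries, from *Ldha* at 109 down to *Hk2* at 0.465.

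Of the 34 members, 8 differed in at least 1 of 9 comparisons, beside 15.7% of all genes tested, and 26 passed in none. The 8 were *Hk2*, *Gpi1*, *Tpi1* and *Eno3* of glycolysis, *Pdk1* of pyruvate control, *Tkt* of the pentose phosphate pathway, and *Hif1a* and *Egln3*. Calls are from edgeR's quasi-likelihood test on all 10 libraries, adjusted by Benjamini-Hochberg over 13796 genes at FDR 0.05. The members together held about the same level in FoxP3+CD25+ and FoxP3-CD25- cells. Their summed CPM was 3747 ± 44.6 (SD, n = 2) in WT FoxP3+CD25+, 3687 ± 179 in WT FoxP3-CD25-, 3732 ± 121 in KO FoxP3+CD25+, 3735 ± 114 in KO FoxP3-CD25- and 3430 ± 73.0 in KO FoxP3+CD25- cells. Both KO FoxP3+CD25- libraries (3378 and 3481) were below the other 8, the lowest of which had 3560. With 2 libraries against 2, an exact permutation test cannot go below p = 0.333, so these sums carry no test. By list, the 4 HIF genes summed to 513 ± 111 CPM in WT FoxP3+CD25+ cells and to 276 ± 8.02 in KO FoxP3+CD25- cells. These sums differed mainly in *Hif1a*, which averaged 404 and 164 CPM. *Egln1* averaged 95.3 and 105, *Egln3* 10.1 and 5.20, and *Bnip3* 3.43 and 2.23. The 6 pyruvate control genes were highest in WT FoxP3-CD25- cells (594 and 634).

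**Figure D2:**
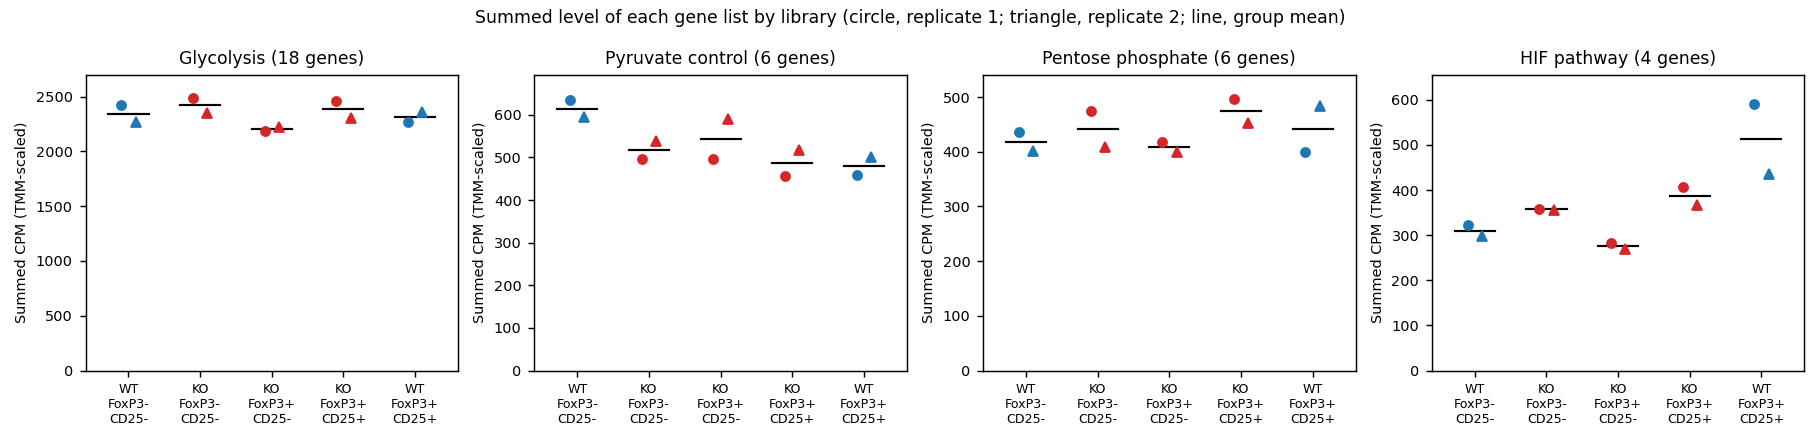
Summed CPM of each of the 4 gene lists in every library, with WT in blue, KO in red, circles for replicate 1, triangles for replicate 2 and a line at the group mean. The HIF list ran from 271 in a KO FoxP3+CD25- library to 591 in a WT FoxP3+CD25+ library, while the other lists moved less. *Hif1a* was the largest part of the HIF sum in every library.

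*Hif1a* (chr12:73901375-73947530, plus strand, mm10) was higher in FoxP3+CD25+ than in FoxP3-CD25- cells of WT mice. The WT FoxP3+CD25+ libraries had 473 and 336 CPM, and the WT FoxP3-CD25- libraries 209 and 192. KO FoxP3+CD25+ cells had 298 and 283 CPM, KO FoxP3-CD25- cells 225 and 241, and KO FoxP3+CD25- cells 167 and 161. Every FoxP3+CD25+ library lay above every other library, and both KO FoxP3+CD25- libraries lay below the other 8. In WT cells the log2 difference was 1.01 (SE 0.14, adjusted p = 0.00104). In KO cells it was 0.32 and did not pass (adjusted p = 0.317). The difference between those differences, KO minus WT, was -0.69 (95% interval -1.14 to -0.24, unadjusted p = 0.00622, adjusted p = 0.717 in edgeR's model). It passed with the mouse as a block, and without WT FoxP3+CD25+ replicate 2. The call in WT cells held under each alternative and library left out. KO FoxP3+CD25- cells fell below KO FoxP3+CD25+ cells by 0.82 (SE 0.15, adjusted p = 0.00588) and below WT FoxP3+CD25+ cells by 1.30 (SE 0.15, adjusted p = 0.000263). The call against KO FoxP3+CD25+ cells was lost without KO FoxP3+CD25- replicate 2. Against KO FoxP3-CD25- cells the value was -0.51 and did not pass (adjusted p = 0.145). It passed with the mouse block, without WT FoxP3+CD25+ replicate 1 or 2, and without both WT libraries numbered 1. An antisense gene, *Gm15283*, overlaps *Hif1a*, and the strand setting of the counting was not given in the sources used here.

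*Egln3*, a prolyl hydroxylase that is itself raised by HIF (chr12:54178981-54203860, minus strand), was high in KO FoxP3-CD25- cells. They had 16.5 and 17.9 CPM, against 6.14 and 4.27 in KO FoxP3+CD25- and 9.46 and 7.60 in KO FoxP3+CD25+ cells. WT FoxP3+CD25+ libraries had 12.7 and 7.44 CPM and WT FoxP3-CD25- libraries 13.2 and 8.15, so WT groups overlapped each other. KO FoxP3+CD25- cells were lower than KO FoxP3-CD25- cells by a log2 difference of -1.76 (SE 0.34, adjusted p = 0.0296). The call was lost when any of the 4 libraries compared was left out. In KO FoxP3+CD25+ against KO FoxP3-CD25- cells *Egln3* did not pass, but it passed as lower with no filter on low counts, with the likelihood ratio test, with either block and without both WT libraries numbered 1. *Egln1* (76.1 to 115 CPM over the 10 libraries) and *Bnip3* (1.31 to 3.66) passed in no comparison.

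*Hk2* (chr6:82725025-82774454, minus strand), the inducible hexokinase, had the widest difference among the members. WT FoxP3+CD25+ libraries had 9.60 and 10.4 CPM (75 and 88 counts), and WT FoxP3-CD25- libraries 1.99 and 1.34 (24 and 13 counts). KO FoxP3+CD25+ libraries had 8.39 and 6.68 CPM, KO FoxP3-CD25- libraries 2.65 and 2.90, and KO FoxP3+CD25- libraries 1.45 and 0.766 (9 and 7 counts). All 4 FoxP3+CD25+ libraries were above the other 6. The log2 difference between FoxP3+CD25+ and FoxP3-CD25- cells was 2.55 in WT (SE 0.30, adjusted p = 0.000354), a 5.86-fold difference, and 1.42 in KO cells (SE 0.33, adjusted p = 0.0253). The WT call held without both WT libraries numbered 1. The KO call was lost when any of the 4 libraries compared was left out. KO FoxP3+CD25- cells were lower than KO FoxP3+CD25+ cells by a log2 difference of -2.82 (SE 0.39, adjusted p = 0.00133). An antisense gene, *Gm17034*, overlaps *Hk2*.

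*Hk1*, the constitutive hexokinase, did not pass in any comparison, but with the mouse as a block it passed as lower in KO FoxP3+CD25- than in WT FoxP3+CD25+ cells. It had 249 and 210.5 CPM in WT FoxP3+CD25+, 222 and 185 in WT FoxP3-CD25-, 225 and 200.5 in KO FoxP3+CD25+, 206 and 206 in KO FoxP3-CD25-, and 185 and 196 in KO FoxP3+CD25- cells. Per kilobase of exon, *Hk2* made up 5.9% ± 0.969 of the sum of the 2 hexokinases in FoxP3+CD25+ cells of WT mice and 4.81% ± 0.368 in those of KO mice. In FoxP3-CD25- cells it made up 1.15% ± 0.163 (WT) and 1.89% ± 0.12 (KO), and KO FoxP3+CD25- cells had 0.833% ± 0.392 (SD, n = 2 each). *Hk1* thus held most of the hexokinase transcripts in all 10 libraries.

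The steps after hexokinase moved less. *Tpi1* (chr6:124810586-124814296, minus strand), triose phosphate isomerase, had 36.3 and 32.0 CPM in WT FoxP3+CD25+ cells and 22.8 and 20.9 in WT FoxP3-CD25- cells. KO libraries had 31.1 and 26.1 CPM in FoxP3+CD25+, 21.7 and 23.1 in FoxP3-CD25-, and 16.0 and 19.5 in FoxP3+CD25- cells. It rose in WT FoxP3+CD25+ over WT FoxP3-CD25- cells by 0.64 (SE 0.16, adjusted p = 0.0220), and fell in KO FoxP3+CD25- against KO FoxP3+CD25+ cells by 0.68 (SE 0.17, adjusted p = 0.0331). The WT call was lost without WT FoxP3+CD25+ replicate 1, and without either WT FoxP3-CD25- library. The KO call was lost without either KO FoxP3+CD25+ library and without either KO FoxP3+CD25- library. *Eno3*, enolase 3 (chr11:70657202-70662513, plus strand), had 19.1 and 19.7 CPM in KO FoxP3+CD25+ cells against 11.1 and 12.6 in KO FoxP3-CD25- cells, a rise of 0.70 (SE 0.17, adjusted p = 0.0302). This call was lost with DESeq2, with no filter on low counts, and without any of the 4 libraries compared, either WT FoxP3-CD25- library or KO FoxP3+CD25- replicate 1. In WT mice it had 21.0 and 21.1 CPM against 16.0 and 16.1, and the difference did not pass (0.39, adjusted p = 0.149), although the libraries separated the groups. KO FoxP3+CD25- libraries had 13.3 and 14.2 CPM, lower than WT FoxP3+CD25+ cells by 0.61 on the log2 scale (SE 0.16, adjusted p = 0.0314). *Gpi1* (chr7:34201330-34230336, minus strand) had 425 and 417 CPM in WT FoxP3+CD25+, 391 and 343 in WT FoxP3-CD25-, 389 and 396 in KO FoxP3+CD25+, 342 and 348 in KO FoxP3-CD25-, and 301 and 331 in KO FoxP3+CD25- cells. It passed only for KO FoxP3+CD25- against WT FoxP3+CD25+ cells (-0.41, SE 0.10, adjusted p = 0.0260). This call was lost without WT FoxP3+CD25+ replicate 1 and without either KO FoxP3+CD25- library. The *Eno3* call against the same cells was lost with DESeq2, with no filter on low counts, without any of these 3 libraries, and without WT FoxP3+CD25+ replicate 2, either WT FoxP3-CD25- library or either KO FoxP3+CD25+ library.

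The most abundant isozymes of the other steps passed in no comparison in this test. *Pfkp*, phosphofructokinase P, had 190 and 158 CPM in WT FoxP3+CD25+, 180 and 190 in WT FoxP3-CD25-, 183 and 168 in KO FoxP3+CD25+, 209 and 194 in KO FoxP3-CD25-, and 181 and 171 in KO FoxP3+CD25- cells. *Aldoa*, a symbol shared by 2 annotated genes, had 226 and 238 CPM in the WT Treg libraries, 305 and 263 in their FoxP3-CD25- counterparts, 238 and 234 in KO FoxP3+CD25+, 260.3 and 278 in KO FoxP3-CD25-, and 241 and 264 in KO FoxP3+CD25- cells. With the mouse as a block it passed as lower in the WT pair. *Eno1* had 152 and 214 CPM in WT FoxP3+CD25+, 234 and 215 in WT FoxP3-CD25-, 215 and 204 in KO FoxP3+CD25+, 276 and 230.2 in KO FoxP3-CD25-, and 228 and 211 in KO FoxP3+CD25- cells. *Ldha* had 239 and 356 CPM in WT FoxP3+CD25+, 361 and 372 in WT FoxP3-CD25-, 385 and 339 in KO FoxP3+CD25+, 418 and 379 in KO FoxP3-CD25-, and 361 and 360 in KO FoxP3+CD25- cells. The library WT FoxP3+CD25+ replicate 1 was thus the lowest of 10 for *Ldha*, *Eno1* and *Aldoa*. Without WT FoxP3+CD25+ replicate 2, *Ldha* and *Eno1* passed as lower in WT FoxP3+CD25+ than in WT FoxP3-CD25- or KO FoxP3+CD25- cells.

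*Pkm*, which makes pyruvate, had 429 and 396 CPM in WT FoxP3+CD25+, 396 and 372 in WT FoxP3-CD25-, 454 and 389 in KO FoxP3+CD25+, 442 and 394 in KO FoxP3-CD25-, and 368 and 347 in KO FoxP3+CD25- cells. *Gapdh*, glyceraldehyde phosphate dehydrogenase, had 32.1 and 29.6 CPM in WT FoxP3+CD25+, 32.0 and 29.5 in WT FoxP3-CD25-, 33.6 and 33.8 in KO FoxP3+CD25+, 32.8 and 29.9 in KO FoxP3-CD25-, and 26.7 and 25.8 in KO FoxP3+CD25- cells. *Pgk1*, phosphoglycerate kinase, had 54.1 and 58.0 CPM in WT FoxP3+CD25+, 55.8 and 52.2 in WT FoxP3-CD25-, 59.2 and 49.9 in KO FoxP3+CD25+, 50.9 and 50.9 in KO FoxP3-CD25-, and 41.9 and 44.3 in KO FoxP3+CD25- cells. With the mouse block *Pgk1* passed as lower in KO FoxP3+CD25- than in WT FoxP3+CD25+ cells. *Pgam1*, phosphoglycerate mutase, had 7.81 and 10.9 CPM in WT FoxP3+CD25+, 7.29 and 11.1 in WT FoxP3-CD25-, 10.4 and 9.04 in KO FoxP3+CD25+, 9.10 and 8.43 in KO FoxP3-CD25-, and 7.60 and 8.53 in KO FoxP3+CD25- cells. The less abundant isozymes had 63.0 to 79.7 CPM (*Pfkl*), 18.0 to 25.5 (*Pfkm*) and 2.26 to 4.02 (*Aldoc*) over the 10 libraries, and *Pfkfb3*, which makes an activator of phosphofructokinase, had 59.9 to 75.8. Over the 26 members without a call in the main test, the highest library was 1.26 to 2.79 times the lowest, with a median of 1.46, and under 2 times for 23 of them.

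*Ldhb*, lactate dehydrogenase B, had higher values in KO than in WT libraries, short of the threshold. WT libraries had 27.5 and 47.5 CPM in FoxP3+CD25+ and 24.8 and 28.7 in FoxP3-CD25- cells. KO libraries had 51.0 and 63.2 CPM in FoxP3+CD25+, 38.7 and 39.1 in FoxP3-CD25-, and 47.7 and 54.2 in FoxP3+CD25- cells. Every KO library of a population was above the WT libraries of that population, as were 13.5% of all genes for FoxP3+CD25+ and 19% for FoxP3-CD25- cells. The log2 difference was 0.60 in FoxP3+CD25+ (95% interval 0.12 to 1.09) and 0.54 in FoxP3-CD25- cells (0.05 to 1.04), and neither passed in edgeR's test (adjusted p = 0.9999 and 0.564). KO FoxP3+CD25- cells against WT FoxP3-CD25- cells gave 0.94 (SE 0.22, adjusted p = 0.114), which passed with DESeq2, with the likelihood ratio test, with no filter, with either block and without either WT FoxP3+CD25+ library. The share of *Ldhb* in *Ldha* plus *Ldhb*, per kilobase, was 25% ± 4.53 in KO and 20.8% ± 1.77 in WT FoxP3+CD25+ cells, 17.1% ± 1.13 in KO and 13.3% ± 0.99 in WT FoxP3-CD25- cells. The share was 23.0% ± 1.63 in KO FoxP3+CD25- cells. A share of 21.0% of the 50-base stretches of *Ldhb* occurs under other symbols, so its level is uncertain.

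**Figure D3:**
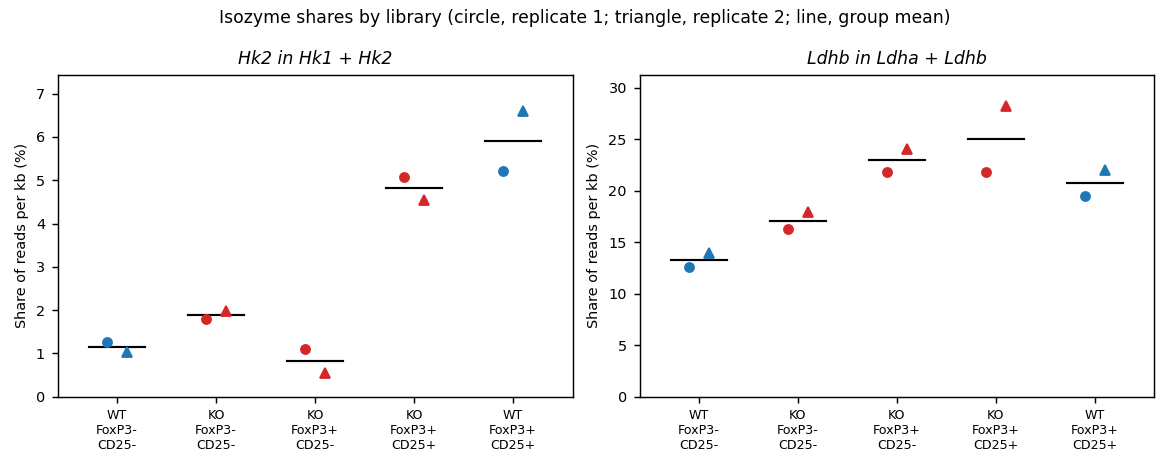
Share of *Hk2* among the 2 hexokinases (left) and of *Ldhb* among the 2 lactate dehydrogenases (right), in percent of reads per kilobase of exon, for each library. WT is blue and KO red, circles are replicate 1, triangles replicate 2 and lines group means, which run from 0.833% to 5.9% for *Hk2* and from 13.3% to 25% for *Ldhb*.

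Among the genes of pyruvate control, *Pdk1* (chr2:71873224-71903858, plus strand), a kinase that switches the pyruvate dehydrogenase complex off, was lower in WT FoxP3+CD25+ cells. They had 172 and 166 CPM against 325 and 311 in WT FoxP3-CD25- cells, a log2 difference of -0.91 (SE 0.21, adjusted p = 0.0178). KO libraries had 130 and 190 CPM in FoxP3+CD25+, 192 and 255 in FoxP3-CD25-, and 188 and 280 in FoxP3+CD25- cells. In each KO population replicate 1 was the lower one. The KO difference of -0.48 did not pass (adjusted p = 0.291), but passed with the mouse as a block. The WT call was lost without WT FoxP3+CD25+ replicate 1 or 2, and without either WT FoxP3-CD25- library. *Pdk2* (6.12 to 15.3 CPM), *Pdk3* (14.9 to 25.6) and the complex subunits *Pdha1* (169 to 215) and *Pdhb* (45.3 to 72.8) passed in no comparison, nor did the phosphatase *Pdp1* (14.3 to 24.0). With the mouse block *Pdhb* passed as lower in the WT pair and *Pdk3* as lower in KO FoxP3+CD25- than in KO FoxP3+CD25+ cells, and without WT FoxP3+CD25+ replicate 2 *Pdhb* passed as lower in WT FoxP3+CD25+ than in WT FoxP3-CD25- or KO FoxP3+CD25- cells.

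In the pentose phosphate pathway, *Tkt* (chr14:30548359-30574720, plus strand), transketolase, was the member that moved. It had 182 and 154 CPM in KO FoxP3+CD25+ and 113 and 116 in KO FoxP3+CD25- cells, a fall of 0.55 on the log2 scale (SE 0.13, adjusted p = 0.0249). WT FoxP3+CD25+ libraries had 147 and 172 CPM, WT FoxP3-CD25- libraries 132 and 128, and KO FoxP3-CD25- libraries 140 and 117. A lower level than in WT FoxP3+CD25+ cells was also found in KO FoxP3+CD25- cells, with a log2 difference of -0.47 (SE 0.13, adjusted p = 0.0374). The first of these calls was lost without KO FoxP3+CD25+ replicate 1 and without either KO FoxP3+CD25- library. The other was lost without either KO FoxP3+CD25- library, either WT FoxP3-CD25- library or WT FoxP3+CD25+ replicate 2. *G6pdx*, which opens the oxidative branch, had 37.2 to 48.6 CPM and passed in no comparison. The same held for *Pgls* (24.4 to 36.1) and *Pgd* (63.7 to 88.3) of that branch, and for *Rpia* (42.9 to 62.3) and *Taldo1* (69.1 to 121), which act after it.

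**Figure D4:**
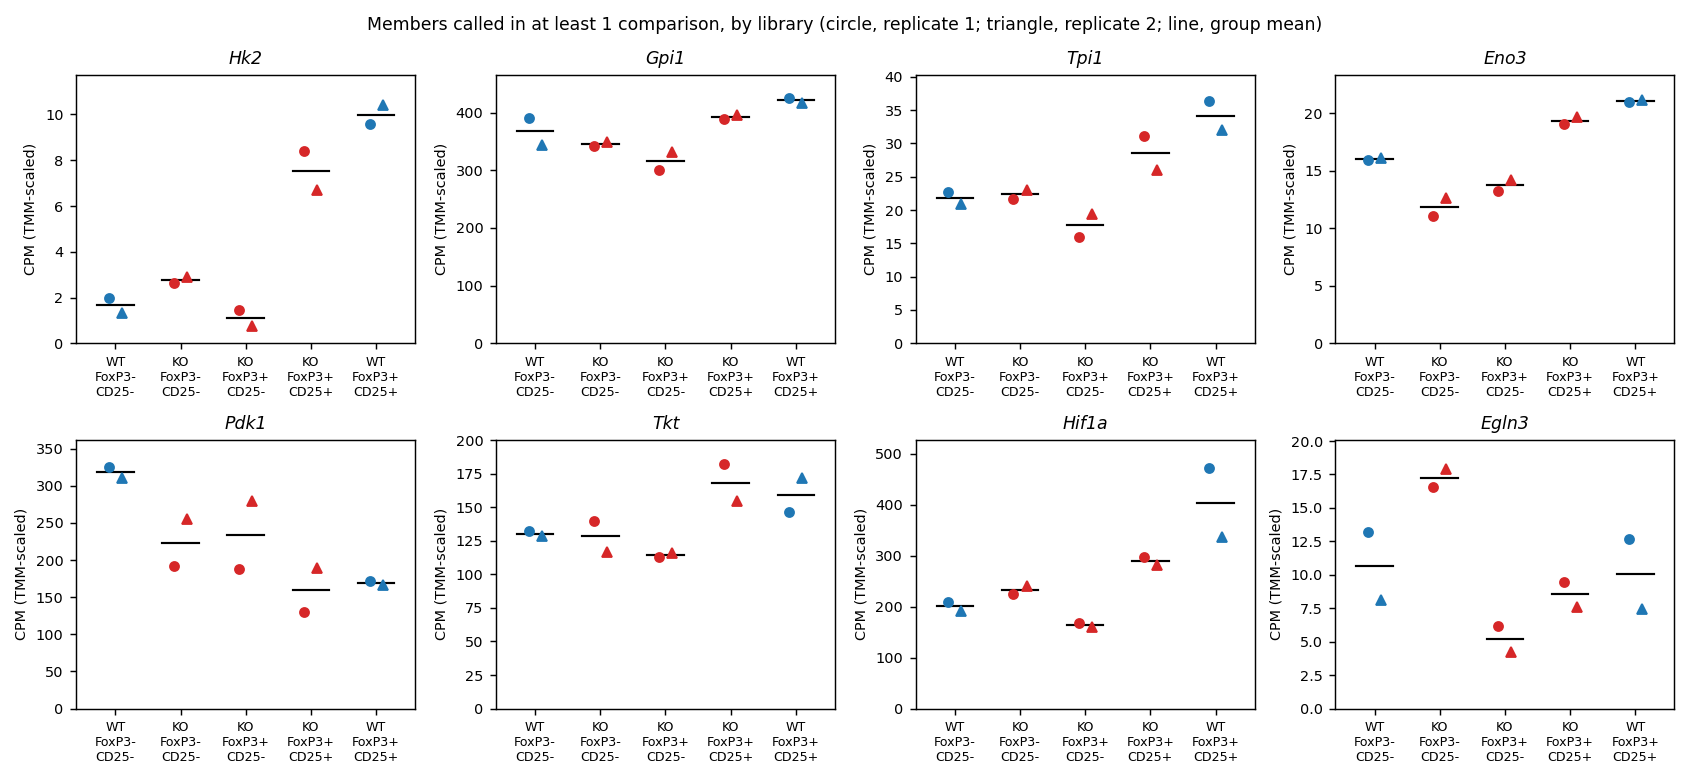
CPM of the 8 members called in at least 1 comparison, for each library of the 5 groups (blue, WT; red, KO; circles, replicate 1; triangles, replicate 2; lines, group means). *Hk2*, *Tpi1*, *Eno3* and *Hif1a* are highest in the 4 FoxP3+CD25+ libraries, and *Egln3* in the KO FoxP3-CD25- libraries.

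Between FoxP3+CD25+ and FoxP3-CD25- cells of WT mice, 4 of 34 members passed, 3 higher and 1 lower. Of all genes tested, 10.9% passed, 7.15% higher and 3.75% lower, so the members passed about as often as any gene. Their median log2 difference was 0.03, beside -0.02 for all genes. Shares of all genes are from the main fit. They are not given for blocks or with libraries left out, so counts under those settings cannot be set against them. With the mouse as a block the count was 7, adding *Aldoa* (lower), *Ldhb* (higher) and *Pdhb* (lower), and without both WT libraries numbered 1 it was 2, *Hk2* and *Hif1a*. In KO mice 2 of 34 passed, *Hk2* and *Eno3*, both higher (6.34% of all genes, 3.52% higher), with a median of 0.08 beside -0.00. The KO count was 6 with the mouse block, adding *Ldhb* and *Tkt* (higher) and *Egln3* and *Pdk1* (lower), 1 with DESeq2, and 0 without any of the 4 libraries compared. Both comparisons describe each genotype apart. The test of the difference between them called 0 of 34 members and 0% of all genes, with 2 members at an unadjusted p under 0.05 in edgeR (*Hk2* and *Hif1a*), 0 called by DESeq2 and 1 (*Hif1a*) with the mouse block.

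Between KO and WT cells of the same population, none of the members passed edgeR's test. In FoxP3+CD25+ cells the count was 0 of 34, beside 0.00725% of all genes, and it was 0 with DESeq2 and the likelihood ratio test as well. At an unadjusted p under 0.05 there were 3, *Ldhb* and *Pdhb* with higher and *Hif1a* with lower values in KO cells. For all 3, WT replicate 1, which held *Xist*, lay further from the KO libraries than WT replicate 2. These WT libraries had 27.5 and 47.5 CPM of *Ldhb*, 45.3 and 62.1 of *Pdhb*, and 473 and 336 of *Hif1a*. Shares of all genes at an unadjusted p under 0.05 are not given. *Hif1a* differed by -0.48 (95% interval -0.79 to -0.16). The interval lay within a 2-fold difference either way for 31 of the 34 members, and the values ran from -0.74 to 0.60. In FoxP3-CD25- cells the count was 0 of 34 in edgeR, beside 0.145% of all genes, with 4 at an unadjusted p under 0.05 (*Eno3* and *Pdk1* with lower, *Ldhb* and *Egln3* with higher values in KO cells). It was 0 with DESeq2, and 1, *Pdk1* lower, with the mouse block. For 30 of 34 members the interval lay within 2-fold.

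**Figure D5:**
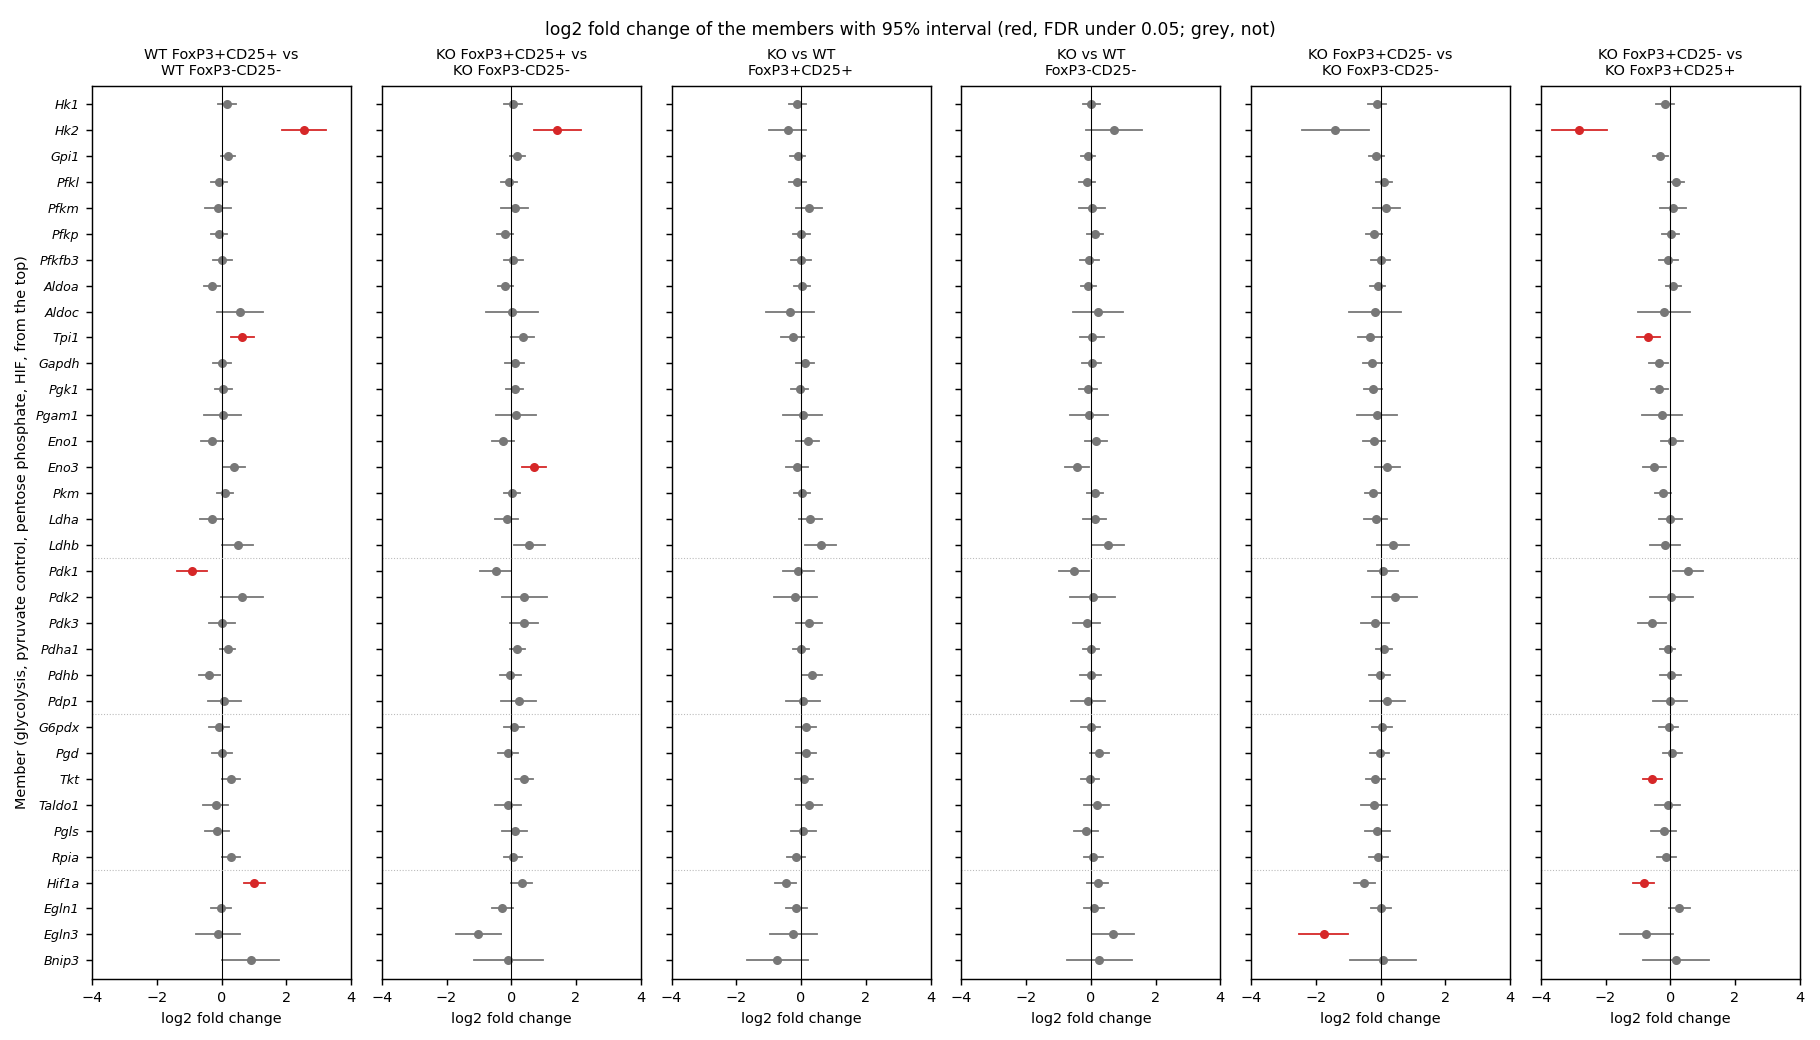
log2 fold change of each member in 6 comparisons, with its 95% interval (red where FDR was under 0.05, grey otherwise), grouped from the top into glycolysis, pyruvate control, pentose phosphate and HIF genes. Red points are 4, 2, 0, 0, 1 and 4 from left to right, and *Hk2* has the widest spread.

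KO FoxP3+CD25- cells express FoxP3 without CD25 and were compared with each other group, with which they share libraries from comparison to comparison. The shares of all genes below are from the main fit. They are no yardstick for counts with a block or with libraries left out. Against KO FoxP3+CD25+ cells 4 of 34 members passed, all lower (*Hk2*, *Hif1a*, *Tpi1* and *Tkt*), beside 7.02% of all genes, 4.76% lower. Leaving out KO FoxP3+CD25- replicate 2 left *Hk2* alone, leaving out KO FoxP3+CD25- replicate 1 or KO FoxP3+CD25+ replicate 1 left 2, and the mouse block gave 7, adding *Gpi1* and *Pdk3* (lower) and *Pdk1* (higher). In 16 of 34 members both KO FoxP3+CD25- libraries were below both KO FoxP3+CD25+ libraries, beside 25.3% of all genes, and in 3 above, beside 24%. Against WT FoxP3+CD25+ cells 6 passed, all lower (*Hk2*, *Hif1a*, *Tpi1*, *Gpi1*, *Eno3* and *Tkt*), beside 11.2% of all genes, 7.34% lower. The mouse block gave 11, adding *Egln3*, *Hk1* and *Pgk1* (lower) and *Ldhb* and *Pdk1* (higher), leaving out either KO FoxP3+CD25- library gave 3, and leaving out both WT libraries numbered 1 gave 3, *Hif1a*, *Hk2* and *Tpi1*. Against KO FoxP3-CD25- cells *Egln3* alone passed, with a lower level, beside 1.67% of all genes, 1.35% lower. *Hif1a* joined it with the mouse block, without either WT FoxP3+CD25+ library, and without both WT libraries numbered 1. Against WT FoxP3-CD25- cells 0 of 34 passed in edgeR, beside 0.768% of all genes, with 3 at an unadjusted p under 0.05, 1 called by DESeq2 (*Ldhb*) and 3 with the mouse block (*Ldhb* higher, *Egln3* and *Pdk1* lower).

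Cell state was described by 5 genes, *Ccr7*, *Lef1* and *Tcf7* of naive and *Cd44* and *Cd69* of activated T cells. A sum over the 5 mixes both kinds and is no scale of activation. This sum was 1932 and 1939 CPM in WT FoxP3+CD25+, 3728 and 3597 in WT FoxP3-CD25-, 2101 and 1862 in KO FoxP3+CD25+, 3640.4 and 3295 in KO FoxP3-CD25-, and 3237 and 3073 in KO FoxP3+CD25- cells. In the WT pair 4 of 5 passed, *Ccr7*, *Lef1* and *Tcf7* lower and *Cd44* higher in FoxP3+CD25+ cells, and in the KO pair *Lef1* and *Tcf7* passed as lower. In KO FoxP3+CD25- against KO FoxP3+CD25+ cells *Lef1* and *Tcf7* were higher and *Cd44* lower, and against WT FoxP3+CD25+ cells *Ccr7* was higher as well. Against either FoxP3-CD25- group *Cd44* alone passed, lower. None of the 5 passed edgeR's test between KO and WT cells of the same population, where 2 (FoxP3+CD25+) and 3 (FoxP3-CD25-) had an unadjusted p under 0.05. *Cd44*, an activation marker, had 17.9 and 16.1 CPM in KO FoxP3+CD25-, 124 and 112 in KO FoxP3+CD25+ and 148 and 157 in KO FoxP3-CD25- cells. *Cd44*, *Hk2*, *Hif1a*, *Tpi1* and *Tkt* passed as lower in KO FoxP3+CD25- than in KO FoxP3+CD25+ cells. Between KO FoxP3+CD25+ and KO FoxP3-CD25- cells *Hk2* alone of these genes passed, with a higher level in FoxP3+CD25+ cells. The 10 cell cycle genes summed to 80.2 and 112 CPM in KO FoxP3+CD25-, 147 and 256 in KO FoxP3-CD25-, and 106 and 211 in KO FoxP3+CD25+ cells, and 0 of 10 passed edgeR's test in any comparison, though 6 had an unadjusted p under 0.05 between KO FoxP3+CD25- and KO FoxP3-CD25- cells. In each of the 5 groups replicate 1 had the higher sum. The part of activation state and cycling in the members' differences was not tested.

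Other genes of the same pathways, 68 by function, gave 53 with enough counts to test, and 9 of these passed in at least 1 comparison, beside 15.7% of all genes. In WT FoxP3+CD25+ against WT FoxP3-CD25- cells, 2 of 17 other glycolysis genes (11.8%) passed, beside 10.9% of all genes, *Galm* (galactose mutarotase) and *Eno2* (enolase 2), both higher. *Eno2* averaged 4.44 ± 0.599 and 1.16 ± 0.114 CPM, a log2 difference of 1.93 (SE 0.34, adjusted p = 0.00407). *Prps1l1*, 1 of 8 other pentose phosphate genes, had 17 and 6 counts in WT FoxP3+CD25+ libraries and 0 in both WT FoxP3-CD25- libraries. None of 8 other pyruvate genes passed in edgeR, and none had an unadjusted p under 0.05.

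Of 20 other HIF pathway genes, 6 (30%) passed in that WT comparison, beside 10.9% of all genes. This list was chosen with earlier results of these data known, so its share is a description only. *Hif3a*, *Arnt2*, *P4ha1*, *Plod2* and *Bhlhe40* were higher and *Epas1*, which encodes HIF-2α, was lower. *Epas1* had 8.32 and 3.78 CPM in WT FoxP3+CD25+ and 27.5 and 22.8 in WT FoxP3-CD25- cells, a log2 difference of -2.07 (SE 0.34, adjusted p = 0.00232), the opposite direction to *Hif1a*. In KO FoxP3+CD25- cells *Epas1* had 22.3 and 33.9 CPM, higher than in KO FoxP3+CD25+ cells (5.95 and 8.78) by 1.93 (SE 0.34, adjusted p = 0.00539). *Bhlhe40*, a repressor induced by HIF and by activation, had 364 and 110 CPM in WT FoxP3+CD25+ and 61.5 and 12.5 in WT FoxP3-CD25- cells, with replicate 1 the higher in both. In KO FoxP3+CD25+ against KO FoxP3-CD25- cells *Eno2* (1.73, adjusted p = 0.0245) and *P4ha1*, a collagen prolyl hydroxylase subunit (0.87, adjusted p = 0.0110), were higher. In KO FoxP3+CD25- against KO FoxP3+CD25+ cells *Galm*, *Eno2* and *Bhlhe40* were lower and *Epas1* higher. These calls were 2 of 53 where 6.34% of all genes passed, and 4 of 53 where 7.02% did. Of the 20 HIF genes alone, 1 (5%) passed in the first of these comparisons and 2 (10%) in the second. For KO FoxP3+CD25- against WT FoxP3+CD25+ cells it was 6 (30%), the same genes as in the WT pair, beside 11.2% of all genes. *Epas1* was higher and the other 5 lower. Both shares of 30% use the same WT FoxP3+CD25+ libraries, so they are not independent. Of the 53 genes, 0 passed edgeR's test between KO and WT cells of the same population, with 0 at an unadjusted p under 0.05 for FoxP3+CD25+ and 2 for FoxP3-CD25- cells.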

How the data were processed

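Sorted spleen CD4+ T cells gave 10 RNA-seq libraries (NEBNext Ultra RNA kit, HiSeq2500). Per the submitters' processing notes, the authors used HISAT2 (version 2.1.0) on mm10 for alignment. HTSeq (version 0.11.1) then tallied reads on genes. The deposited values are counts, whole numbers per gene symbol, not normalized. HTSeq's tallies of unassigned reads stayed out of library sizes.

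All 10 libraries entered 1 edgeR (version 4.0.16) model in R (version 4.3.3) with a mean per group: filterByExpr (minimum count 10), TMM factors, a quasi-likelihood fit and two-sided tests, with Benjamini-Hochberg adjustment over 13796 genes at FDR 0.05. Group values are means with SD over 2 libraries. SE is of the log2 fold change. Alternatives were other filters, scalings, DESeq2 (version 1.42.0), the likelihood ratio test, the legacy fit, replicate blocks and libraries left out. The steps were tested on simulated data. Positions and exon lengths are from GENCODE M21.

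Libraries of a genotype that share a number were read as 1 mouse, which labels imply but do not state. Their deviations from group means correlated at 0.303 in WT and 0.421 to 0.445 in KO mice, and at -0.0114 to 0.114 across genotypes. The mouse therefore served as a replicate block in an alternative fit. The main fit had no block, so its calls and SE do not use this pairing. Replicates were distinct libraries (chi-square per degree of freedom 7.27 to 21).

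Values in every library are given for members called in a comparison, *Hif1a* and the most abundant isozyme of each glycolytic step. The others are given by their range over the libraries, and other pathway genes by name where called. The members and lists were chosen with earlier results of these data known. A pair of listed marker genes is not reported here and is left out of the lists' sums.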

Additional observations from a re-analysis of the deposited data

How the results depend on the processing

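Across 20 alternatives no member's direction reversed where it was called. *Hk2* and *Hif1a* stayed called in WT FoxP3+CD25+ against WT FoxP3-CD25- cells under all 20. The 2 libraries per group limit precision, and the causes of the changes that follow were not tested. Shares of all genes under these settings are not given, so a changed count is not a result about the members.

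With the mouse as a replicate block, the members called were 7 in WT FoxP3+CD25+ against WT FoxP3-CD25- cells, 6 in the KO pair, 1 between KO and WT FoxP3-CD25- cells, 1 in the difference of the Treg contrasts, and for KO FoxP3+CD25- cells 3 against WT FoxP3-CD25-, 2 against KO FoxP3-CD25-, 7 against KO FoxP3+CD25+ and 11 against WT FoxP3+CD25+ cells. It changed no count between KO and WT FoxP3+CD25+ cells (0). The replicate number as a block gave 1 for KO FoxP3+CD25- against WT FoxP3-CD25- cells, as did no filter on low counts, DESeq2 and the likelihood ratio test. DESeq2 gave 1 in the KO pair.

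Leaving out 1 library gave 2 to 6 members in the WT pair, 0 to 3 in the KO pair, 0 to 1 in the difference of the Treg contrasts, and for KO FoxP3+CD25- cells 0 to 1 against WT FoxP3-CD25-, 0 to 2 against KO FoxP3-CD25-, 1 to 4 against KO FoxP3+CD25+ and 3 to 9 against WT FoxP3+CD25+ cells. Without both libraries of the WT mouse numbered 1 the counts were 2 in the WT pair, 2 for KO FoxP3+CD25- against KO FoxP3-CD25- and 3 against WT FoxP3+CD25+ cells.

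Scaled by library size alone, the HIF genes summed to 360.4 CPM in KO FoxP3-CD25- cells. From counts without length scaling, the *Hk2* share was 4.21%, 0.803%, 3.42% and 1.33% in WT FoxP3+CD25+, WT FoxP3-CD25-, KO FoxP3+CD25+ and KO FoxP3-CD25- cells. The *Ldhb* share was 11.1%, 6.79%, 13.7% and 8.91% in the same groups and 12.4% in KO FoxP3+CD25- cells.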

Other observations

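The X-linked members were *Pgk1*, *Pdk3*, *Pdha1* and *G6pdx*. In the 2 WT libraries that held *Xist* counts, *Pgk1* had 54.1 and 55.8 CPM (41.9 to 59.2 in the other 8), *Pdk3* 18.6 and 19.96 (14.9 to 25.6) and *Pdha1* 193 and 190 (169 to 215). *G6pdx* had 37.2 and 42.8 CPM there, both below the other 8 libraries, which had 43.1 to 48.6.

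The 34 members held 0.331% to 0.380% of all counts in a library before TMM scaling.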
